A study of Mus musculus with 6 samples.

Results

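The genes described here are 32 enzymes and carriers of fatty acid oxidation and ketone body metabolism, measured by RNA sequencing in liver progenitor-like cells (LPCs), proliferating epithelial cells grown out of adult mouse liver. They were chosen by symbol, as mitochondrial and peroxisomal oxidation genes with a row in all 6 count tables, and make up 32 of the 20571 symbols that these tables share. The rule uses gene names and no measured values, though it was set with earlier results of these data known. Bec_LPCs were grown in matrigel from pieces of intrahepatic bile duct, taken from wild-type mice, then passaged and sorted, for Epcam per the series' design text. Hep_LPCs came from hepatocytes of ROSA26tdTomato mice given AAV8-TBG-Cre, a virus with Cre under a hepatocyte promoter. NPC_LPCs were derived from non-parenchymal cells, which are all liver cells but hepatocytes, in AlbCreERT/R26GFP mice, where an inducible Cre under albumin sequences turns on GFP. All mice were C57BL/6, given as 6 to 8 weeks old in the sample characteristics and as 8 weeks old in the growth protocol. All cells grew in Transition and Expansion Medium (TEM), and each group has 2 libraries. Whether the replicates of a group are separate cultures or mice is not labelled, and the p-values therefore reflect the spread between these samples alone, which may be technical.

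Long-chain fatty acids are first joined to coenzyme A by acyl-CoA synthetases, then carried into mitochondria on carnitine by Cpt1a, Slc25a20 and Cpt2, and shortened there in repeated rounds of dehydrogenation, hydration, a further dehydrogenation and thiolysis. Electrons from the first step pass through the electron transfer flavoprotein to the respiratory chain, and peroxisomes shorten very long and branched chains with enzymes of their own. Hepatocytes are known for high rates of this oxidation and, in fasting, for turning its acetyl-CoA into ketone bodies under the nuclear receptor PPAR-alpha.

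Total counts ran from 22634867 to 22985844 in Bec_LPCs, from 17575998 to 18123118 in Hep_LPCs and from 17919947 to 20625957 in NPC_LPCs. Replicates differed by a chi-square per degree of freedom of 5.52 in Bec_LPCs, 92.5 in Hep_LPCs and 111 in NPC_LPCs, so the groups did not share 1 spread. The 10 hepatocyte markers summed to 235 and 203 CPM (reads scaled to TMM-adjusted library size) in Bec_LPCs, 507 and 434 in Hep_LPCs, and 393 and 147 in NPC_LPCs, and 3 of them passed 1 CPM in each group. Most of these reads were of Ass1 (1865 to 6271 reads per library) and Hnf4a (499 to 4426), while Alb, the albumin gene, had 2 to 41 reads and Tat and Cyp3a11 had 0 in all libraries. Of the 7 biliary markers 7 passed 1 CPM in Bec_LPCs, 5 in Hep_LPCs and 5 in NPC_LPCs, with sums of 4210 and 3548 CPM in Bec_LPCs, 5031 and 2332 in Hep_LPCs, and 10000 and 4911 in NPC_LPCs. Epcam, the biliary marker named in the sort, had 1397 and 1533 reads in Bec_LPCs, 6 and 31 in Hep_LPCs, and 2 and 12 in NPC_LPCs. Bec_LPCs differed from the other groups in tissue of origin, plating in matrigel, sort, mouse line and the layout of their count tables, and these cannot be told apart. Hep_LPCs and NPC_LPCs differed in mouse line and in the virus as well as in cell of origin, which cannot be told apart either. Summed levels of 8 mesenchymal and stellate cell markers were 186 and 223 CPM in Bec_LPCs, 5.56 and 3.38 in Hep_LPCs, and 5.14 and 17.4 in NPC_LPCs. In Bec_LPCs 6 of the 8 passed 1 CPM, while Lrat, which defines stellate cells, had 0 reads in all 6 libraries. Dcn went the other way, with 1 and 1 reads in Bec_LPCs, 7 and 1 in Hep_LPCs, and 26 and 6 in NPC_LPCs. The part of such cells in the Bec_LPCs results below was not tested. In these bulk samples fewer cells of a type and less RNA per cell cannot be told apart.

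Between Hep_LPCs and NPC_LPCs, the contrast for which the sequencing was done according to the growth protocol, no oxidation gene passed the test. Against either of those groups Bec_LPCs had lower levels of the acyl-CoA synthetase Acsl3, the very-long-chain dehydrogenase Acadvl and the flavoprotein subunit Etfb. Acadvl and Etfb share 42.85% and 53.0% of their exonic length with another gene, and the Bec_LPCs count tables have another layout. The part of counting in their lower levels was not tested. Against Hep_LPCs 4 further genes of synthetases, dehydrogenation and the trifunctional protein were lower in Bec_LPCs, and 4 genes of carnitine transport, auxiliary and peroxisomal steps were higher. The threshold for a call was a Benjamini-Hochberg adjusted p under 0.05, over all genes tested, from edgeR's quasi-likelihood test. Fold changes are on the log2 scale with an SE, which is their size divided by the square root of the F statistic. Called in Hep_LPCs against NPC_LPCs were 0 of 31 members tested by that test, where 0.795% of all genes were called (0.349% higher and 0.446% lower). Unadjusted p-values under 0.05 were found for 4, against 22.2% of all genes, 3 of them higher (Acsl3, Acsl5 and Echs1) and 1 lower (Acox3). DESeq2 called 2, against 12.3% of all genes, and limma-voom 0, against 0.0405%. This comparison was fitted on its own 4 libraries. The Bec_LPCs comparisons were fitted on all 6 with 1 estimate of the spread, although the groups did not share 1 spread. Their numbers of calls are therefore not on the same footing. With all 6 libraries in the fit, Hep_LPCs against NPC_LPCs had 0 members and 1274 of 12867 genes called. In Bec_LPCs against NPC_LPCs 3 of 32 were called, all lower, a share of 9.38% against 11.3% of all genes (4.89% higher and 6.44% lower). In Bec_LPCs against Hep_LPCs 11 of 32 were called, 4 higher and 7 lower, a share of 34.4% against 33.4% of all genes (16.1% higher and 17.2% lower). With library size alone as the scaling 61.3% of all calls against NPC_LPCs and 60.9% of those against Hep_LPCs were higher in Bec_LPCs, beside 43.1% and 48.3% with TMM, and the medians of all genes moved to 0.17 and 0.21. The libraries of the groups compared did not overlap for 46.9% of the 32 members in Hep_LPCs against NPC_LPCs (56.6% of all genes), for 78.1% in Bec_LPCs against NPC_LPCs (70% of all genes) and for 78.1% in Bec_LPCs against Hep_LPCs (77.6% of all genes). The counts are near the background in both Bec_LPCs comparisons and are therefore no result about the members as a group. Median fold changes of the members were 0.04 in Hep_LPCs against NPC_LPCs, -0.12 in Bec_LPCs against NPC_LPCs and -0.25 in Bec_LPCs against Hep_LPCs, beside medians of all genes of -0.00, 0.01 and 0.03.

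**Figure D1:**
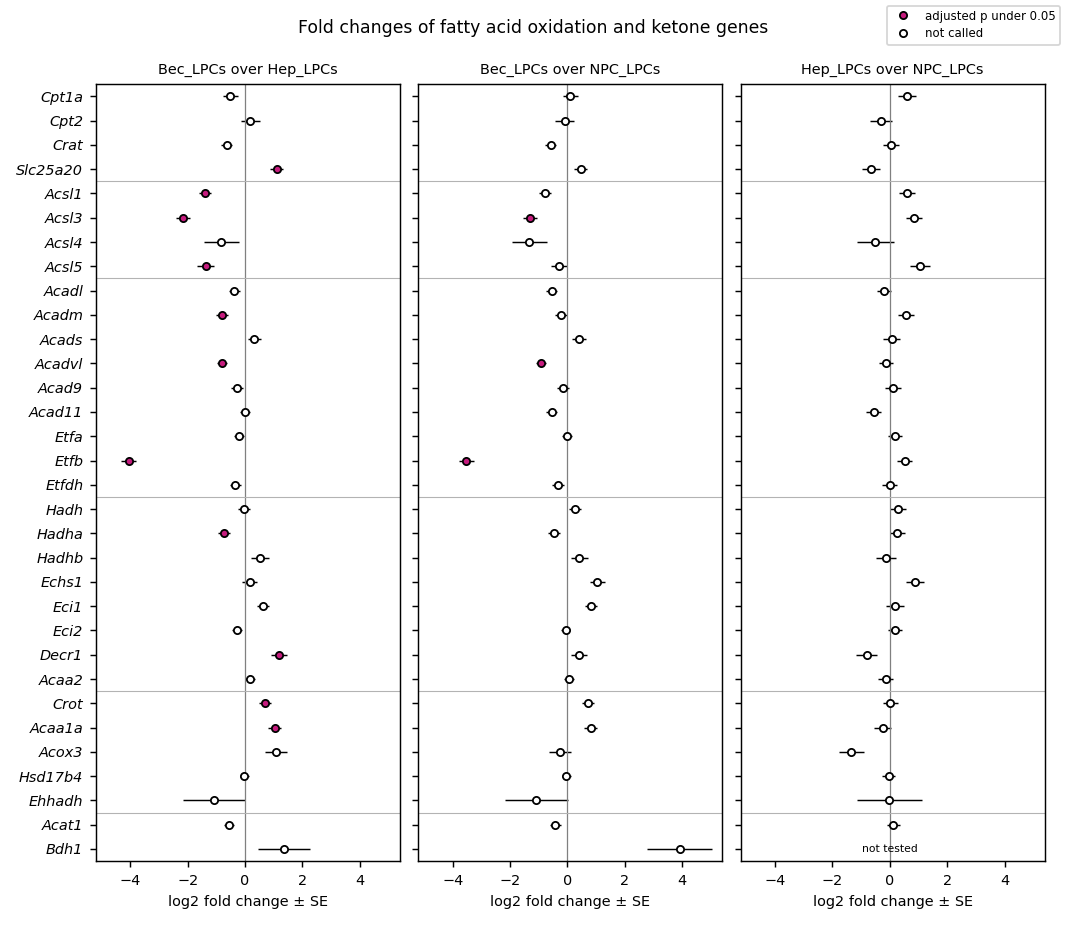
Log2 fold changes ± SE (x axis) of the 32 members (rows, by role), in Bec_LPCs over Hep_LPCs, Bec_LPCs over NPC_LPCs and Hep_LPCs over NPC_LPCs. Filled points had an adjusted p under 0.05 by edgeR's quasi-likelihood test: 11 in the left panel, 3 in the middle and 0 in the right, where Bdh1 was not tested.

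The calls rest on few libraries. Leaving out 1 library leaves a single sample in its group and changes the calls of all genes as well. Without either Bec_LPCs library the calls of all genes fell too, so the counts that follow are no result about the members. Without Bec_LPCs replicate 1, or without replicate 2, 2 members were called against Hep_LPCs (Acsl3 and Etfb), and 1 was called against NPC_LPCs (Etfb). Without Hep_LPCs replicate 1 the count against Hep_LPCs was 7, and without replicate 2 it was 12. Leaving out NPC_LPCs replicate 1 left 1 call against NPC_LPCs and leaving out replicate 2 left 2, while leaving out either Hep_LPCs library there gave 8. Of the 32 genes 27 are taken as counted alike, that is protein-coding, with at most 25% of their exons shared with another protein-coding gene and no near-identical copy. The exceptions are Acadvl, Etfb, Eci2, Acaa1a and Slc25a20. Exon overlaps with non-coding genes were not considered, so alike counting of the 27 is assumed and was not tested. A fit on such genes alone called 7 of 27 against Hep_LPCs (31.4% of all such genes) and 1 of 27 against NPC_LPCs (7.33% of all such genes), and 0 in Hep_LPCs against NPC_LPCs (0.824% of all such genes), where 4 had an unadjusted p under 0.05 in the fit on all genes.

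The 32 genes together held 0.192% ± 0.00807 of the shared counts in Bec_LPCs, 0.233% ± 0.0158 in Hep_LPCs and 0.213% ± 0.0467 in NPC_LPCs (SD, n = 2 each). Single libraries gave 0.197% and 0.186% in Bec_LPCs, 0.222% and 0.244% in Hep_LPCs, and 0.246% and 0.180% in NPC_LPCs. Both Hep_LPCs libraries lay above both Bec_LPCs libraries, and NPC_LPCs spanned the range of the others. Acsl4 and Acsl5 weigh heavily in these sums. Acsl4 held 4596 and 4351 reads in Bec_LPCs, 8070 and 3416 in Hep_LPCs, and 12550 and 4557 in NPC_LPCs. Acsl5 held 3925 and 3792, 5169 and 9251, and 3446 and 4001 in that order of groups. All members together held 43305 and 40151, 39999 and 42696, and 43808 and 36948 reads. The order of the shares therefore does not describe the other members. With 2 libraries against 2 no permutation test could pass the threshold, so no test was made of these shares.

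**Figure D2:**
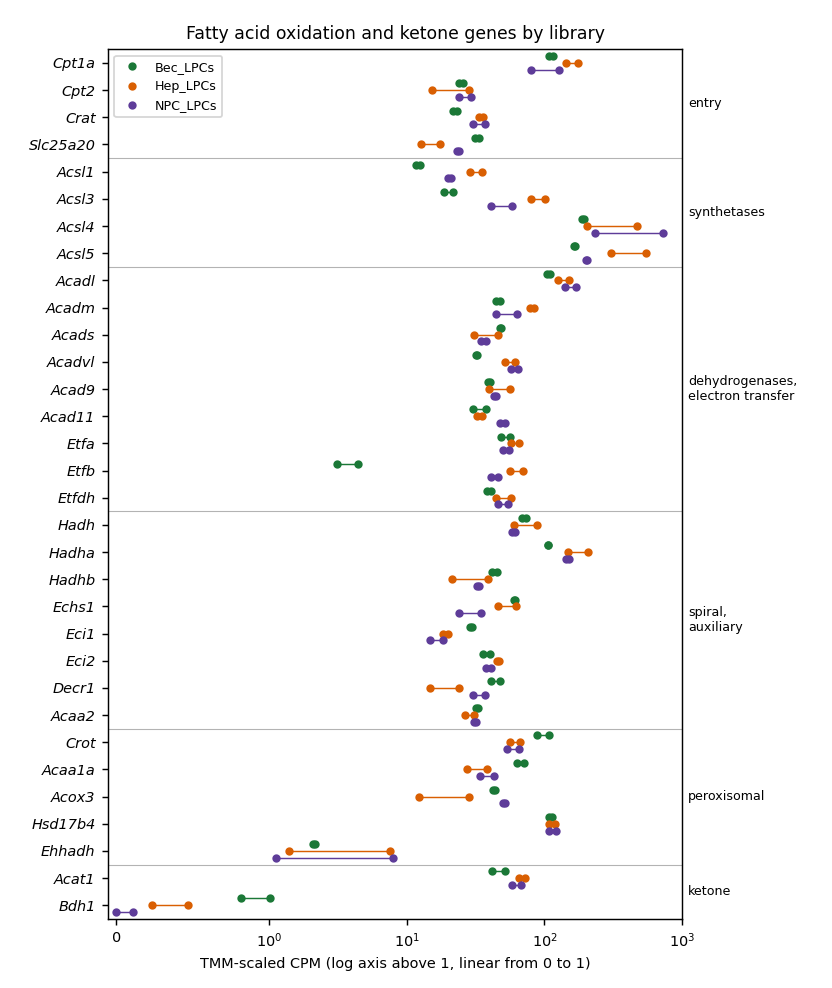
TMM-scaled CPM (x axis, log above 1 and linear from 0 to 1) of each member (rows, by role) in every library, with points of Bec_LPCs, Hep_LPCs and NPC_LPCs joined within a group. Etfb stood apart in Bec_LPCs at 3.12 and 4.46 CPM, while the Ehhadh replicates differed 5.41-fold in Hep_LPCs and 7.13-fold in NPC_LPCs.

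Of the 4 acyl-CoA synthetases, which activate long-chain fatty acids, 3 fell in Bec_LPCs against Hep_LPCs and Acsl3 also fell against NPC_LPCs, where 33.4% and 11.3% of all genes were called. Called lower were 17.2% and 6.44% of all genes. Acsl3, a synthetase of the endoplasmic reticulum and lipid droplets (chromosome 1, 78657825 to 78707743 in mm10), had 18.7 and 21.6 CPM in Bec_LPCs, 101 and 79.4 CPM in Hep_LPCs, and 58.4 and 41.0 CPM in NPC_LPCs. No library of one group overlapped another group, and the order ran from Bec_LPCs through NPC_LPCs to Hep_LPCs. The fold change was -2.16 ± 0.25 against Hep_LPCs (adjusted p = 0.00419) and -1.30 ± 0.24 against NPC_LPCs (adjusted p = 0.0302). In Hep_LPCs against NPC_LPCs it was 0.84 ± 0.28 (adjusted p = 0.169).

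Acsl1, the main synthetase that feeds oxidation in liver and heart (chromosome 8, 46471037 to 46536051), stood at 11.7 and 12.4 CPM in Bec_LPCs, 34.9 and 28.7 CPM in Hep_LPCs, and 21.1 and 20.0 CPM in NPC_LPCs. It showed the same order of groups without overlap, and fell by 1.40 ± 0.21 against Hep_LPCs on the log2 scale (adjusted p = 0.00789), with -0.77 ± 0.21 against NPC_LPCs (adjusted p = 0.0666). Acsl5, a synthetase of mitochondria and endoplasmic reticulum (chromosome 19, 55251938 to 55297720), had 166 and 163 CPM in Bec_LPCs, 303 and 549 CPM in Hep_LPCs, and 199 and 203 CPM in NPC_LPCs. Here both Hep_LPCs libraries lay above the other 4, which were close together. Acsl5 fell by 1.38 ± 0.29 in Bec_LPCs against Hep_LPCs (adjusted p = 0.0194), and was at 1.06 ± 0.34 in Hep_LPCs against NPC_LPCs (adjusted p = 0.158, or 0.0351 by DESeq2). Acsl4, which prefers arachidonic acid (chromosome X, 142317993 to 142390535), was not called in any comparison. It had 194 and 187 CPM in Bec_LPCs, 472 and 203 CPM in Hep_LPCs, and 725 and 232 CPM in NPC_LPCs, so that the second Hep_LPCs and NPC_LPCs libraries lay near Bec_LPCs and the first ones well above. The replicates of Acsl4 differed 2.33-fold in Hep_LPCs and 3.13-fold in NPC_LPCs, against 1.04-fold in Bec_LPCs.

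Against Hep_LPCs the call of Acsl1 was lost without Bec_LPCs replicate 1 (adjusted p = 0.105) or replicate 2 (adjusted p = 0.0916), as was that of Acsl5 (adjusted p = 0.123 and 0.125), and Acsl3 kept it (adjusted p = 0.0460 and 0.0398). The call of Acsl3 against NPC_LPCs was lost without either Bec_LPCs library (adjusted p = 0.249 and 0.215) or NPC_LPCs replicate 1 (adjusted p = 0.0693). As shares of the reads of the 4 synthetases within a library, Acsl4 held 49.7% and 48.7% in Bec_LPCs, 51.9% and 23.6% in Hep_LPCs, and 72.2% and 46.7% in NPC_LPCs. Acsl5 held 42.5% and 42.4% in Bec_LPCs, 33.2% and 63.8% in Hep_LPCs, and 19.8% and 41.0% in NPC_LPCs. The Bec_LPCs libraries were alike in this make-up and the other groups' replicates were not. Summed over the 4 genes, the level was 390 and 383 CPM in Bec_LPCs, 910 and 860 CPM in Hep_LPCs, and 1003 and 496 CPM in NPC_LPCs.

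**Figure D3:**
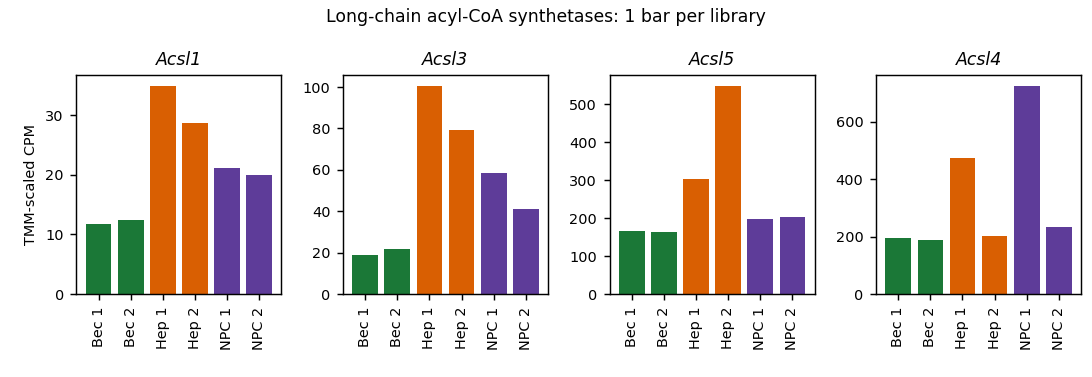
TMM-scaled CPM (y axis, from 0, a scale of its own in each panel) of Acsl1, Acsl3, Acsl5 and Acsl4, 1 bar per library. For Acsl1 and Acsl3 the bars step up from Bec_LPCs to NPC_LPCs to Hep_LPCs without overlap, while the Acsl4 replicates differ 2.33-fold in Hep_LPCs and 3.13-fold in NPC_LPCs.

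At the entry to mitochondria 1 of 4 members was called in Bec_LPCs against Hep_LPCs, 25% beside 33.4% of all genes, the carrier Slc25a20, which exchanges acylcarnitine for carnitine across the inner membrane. Slc25a20 (chromosome 9, 108662088 to 108684641) had 33.3 and 31.2 CPM in Bec_LPCs, 12.7 and 17.4 CPM in Hep_LPCs, and 23.1 and 23.8 CPM in NPC_LPCs. All groups lay apart, and the gene rose by 1.10 ± 0.23 in Bec_LPCs against Hep_LPCs (adjusted p = 0.0181), with 0.46 ± 0.22 against NPC_LPCs (adjusted p = 0.221). Its call was lost without Bec_LPCs replicate 1 (adjusted p = 0.157) or replicate 2 (adjusted p = 0.130), and 18 other annotated genes share short near-identical stretches with it, the top one 366 bases of its 4844 exonic bases at 98.9% identity, so reads from such stretches are uncertain. Cpt1a, the enzyme that sets the rate of entry, stood at 115 and 108 CPM in Bec_LPCs, 144 and 175 CPM in Hep_LPCs, and 128 and 80.2 CPM in NPC_LPCs. NPC_LPCs spanned the values of Bec_LPCs, and Hep_LPCs lay above all others. No comparison of Cpt1a passed the test, with -0.52 ± 0.26 in Bec_LPCs against Hep_LPCs (adjusted p = 0.164). Cpt2, which returns the acyl group to coenzyme A inside mitochondria, had 25.8 and 23.8 CPM in Bec_LPCs, 15.4 and 28.2 CPM in Hep_LPCs, and 29.2 and 23.8 CPM in NPC_LPCs, with all groups overlapping. Crat, which exchanges short acyl groups with carnitine, was at -0.63 ± 0.19 in Bec_LPCs against Hep_LPCs and just missed the threshold (adjusted p = 0.0503), and was called lower in the fit on genes counted alike.

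Among the 9 acyl-CoA dehydrogenases and electron transfer proteins 3 fell in Bec_LPCs against Hep_LPCs, 2 of these also against NPC_LPCs, and none was called higher. A share of 33.3% called against Hep_LPCs stands beside 33.4% of all genes, and 22.2% called against NPC_LPCs beside 11.3%. Called lower were 17.2% of all genes against Hep_LPCs and 6.44% against NPC_LPCs. Etfb and Acadvl, the 2 called against NPC_LPCs, are not among the genes taken as counted alike. Etfb and Etfa are the subunits of the flavoprotein that takes electrons from all acyl-CoA dehydrogenases, and Etfdh passes them on to ubiquinone. Etfb (chromosome 7, 43444083 to 43457800) had 3.12 and 4.46 CPM in Bec_LPCs, 56.5 and 70.2 CPM in Hep_LPCs, and 46.4 and 41.2 CPM in NPC_LPCs. Both Bec_LPCs libraries lay far below every other library, and the fold change was -4.06 ± 0.27 against Hep_LPCs (adjusted p = 0.00115) and -3.53 ± 0.26 against NPC_LPCs (adjusted p = 0.00278). Its partner Etfa stood at 56.4 and 48.0 CPM in Bec_LPCs, 65.1 and 57.1 CPM in Hep_LPCs, and 55.6 and 50.2 CPM in NPC_LPCs. Etfa overlapped between Bec_LPCs and NPC_LPCs, with the smallest fold change of any member in that comparison (-0.02 ± 0.17, adjusted p = 0.952).

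Etfb reads were 0.0554 and 0.0929 of Etfa reads in Bec_LPCs, 0.869 and 1.23 in Hep_LPCs, and 0.834 and 0.821 in NPC_LPCs. The tables differ at this locus. In the annotation 53.0% of the exonic length of Etfb is shared with Gm45233 on the same strand, which has no row in any table, and the Bec_LPCs tables alone hold a row Etfbl, with 0 reads in both libraries. The part of counting in the low Etfb value was not tested, and Etfb is not among the genes taken as counted alike. Etfdh had the smallest fold change in Hep_LPCs against NPC_LPCs, 0.0035 in size ± 0.26, with 41.2 and 38.4 CPM in Bec_LPCs, 44.2 and 56.9 CPM in Hep_LPCs, and 54.0 and 46.1 CPM in NPC_LPCs. Its Hep_LPCs and NPC_LPCs libraries overlapped, and both Bec_LPCs libraries lay below them.

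**Figure D4:**
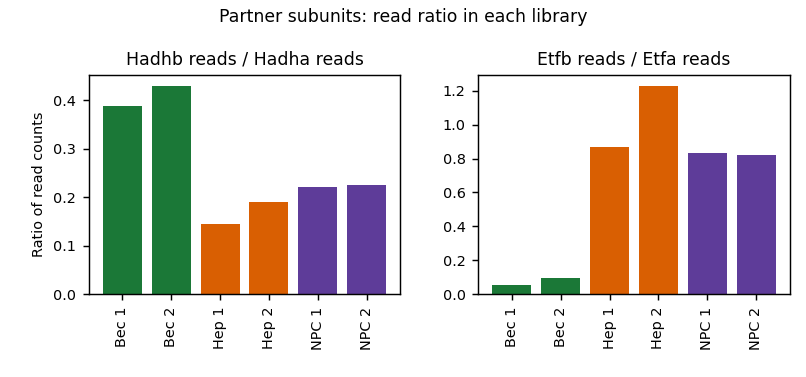
Ratio of read counts (y axis, from 0) of Hadhb over Hadha and of Etfb over Etfa, the subunits of the same protein in each pair, 1 bar per library. The first ratio was highest in both Bec_LPCs libraries (0.389 and 0.430) and the second lowest there (0.0554 and 0.0929).

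Acadvl, the dehydrogenase of very long chains bound to the inner membrane (chromosome 11, 70010183 to 70015411), had 31.9 and 32.5 CPM in Bec_LPCs, 51.4 and 60.9 CPM in Hep_LPCs, and 64.2 and 57.0 CPM in NPC_LPCs. Bec_LPCs lay below the other groups, which overlapped, and Acadvl fell by 0.80 ± 0.17 against Hep_LPCs (adjusted p = 0.0201) and by 0.91 ± 0.17 against NPC_LPCs (adjusted p = 0.0310). Of its exonic length 42.9% is shared with Dvl2 on the opposite strand, whose level was 30.8 and 30.3 CPM in Bec_LPCs, 17.7 and 22.1 CPM in Hep_LPCs, and 30.6 and 28.7 CPM in NPC_LPCs, and the sources used here do not state if counting used strand. Acadm, the medium-chain dehydrogenase (chromosome 3, 153922357 to 153944632), stood at 47.9 and 44.7 CPM in Bec_LPCs, 83.4 and 78.4 CPM in Hep_LPCs, and 63.7 and 44.2 CPM in NPC_LPCs. It fell by 0.81 ± 0.21 in Bec_LPCs against Hep_LPCs (adjusted p = 0.0356), where the libraries lay apart, while NPC_LPCs spanned the Bec_LPCs values. Acadl, the long-chain dehydrogenase, had 109 and 104 CPM in Bec_LPCs, 150 and 126 CPM in Hep_LPCs, and 142 and 170 CPM in NPC_LPCs. Bec_LPCs lay below the other groups here too, without a call (-0.37 ± 0.18 against Hep_LPCs and -0.55 ± 0.18 against NPC_LPCs, adjusted p = 0.150 and 0.0980). Without Bec_LPCs replicate 1 the adjusted p against Hep_LPCs was 0.185 for Acadvl and 0.184 for Acadm, without replicate 2 it was 0.175 and 0.225, and against NPC_LPCs that of Acadvl was at least 0.0511 without any 1 library of Bec_LPCs or NPC_LPCs. Acadm also lost its call without Hep_LPCs replicate 1 (adjusted p = 0.0933), without replicate 2 (adjusted p = 0.0667) and with library size alone as the scaling (adjusted p = 0.0696). The short-chain dehydrogenase Acads, the complex I assembly factor Acad9 and Acad11 were not called, and Acad11 had the smallest fold change in Bec_LPCs against Hep_LPCs (0.0014 in size ± 0.19), with 37.5 and 30.3 CPM in Bec_LPCs, 35.4 and 32.4 CPM in Hep_LPCs, and 51.7 and 47.3 CPM in NPC_LPCs.

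The 8 enzymes of the later steps of the mitochondrial spiral, with the auxiliary enzymes for unsaturated chains, included 1 call in each direction in Bec_LPCs against Hep_LPCs, 25% called beside 33.4% of all genes. Hadha and Hadhb are the subunits of the trifunctional protein, which carries out the last 3 steps on long chains. The genes lie head to head on chromosome 5, Hadha at 30118304 to 30155162 on the minus strand and Hadhb at 30155248 to 30184593 on the plus strand, with 85 bases between them, of which 69.4% are G or C. These bases are shown because both genes start at their ends while the fold changes in Bec_LPCs against Hep_LPCs had opposite signs, that of Hadhb without a call. They stand in capitals, with 10 bases of each gene in lower case, on the plus strand of chr5:30155153-30155257 (RefSeq promoter sequence, GRCm38.p6):
Hadha and Hadhb start region: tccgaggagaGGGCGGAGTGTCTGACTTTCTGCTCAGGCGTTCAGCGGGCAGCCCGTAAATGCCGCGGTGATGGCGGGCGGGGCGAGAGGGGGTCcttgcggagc

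Hadha had 107 and 106 CPM in Bec_LPCs, 149 and 207 CPM in Hep_LPCs, and 151 and 143 CPM in NPC_LPCs. Bec_LPCs lay below the other groups, which overlapped, and Hadha fell by 0.74 ± 0.20 against Hep_LPCs (adjusted p = 0.0361), with -0.47 ± 0.20 against NPC_LPCs (adjusted p = 0.173). Hadhb stood at 41.6 and 45.4 CPM in Bec_LPCs, 21.5 and 39.2 CPM in Hep_LPCs, and 33.4 and 32.1 CPM in NPC_LPCs. For Hadhb Bec_LPCs lay above all other libraries, without a call (0.52 ± 0.30 against Hep_LPCs, adjusted p = 0.221). Hadhb reads were 0.389 and 0.430 of Hadha reads in Bec_LPCs, 0.144 and 0.189 in Hep_LPCs, and 0.221 and 0.225 in NPC_LPCs, so that no library of one group overlapped another in this ratio, which was not tested. Both genes are among those taken as counted alike. The call of Hadha was lost without Bec_LPCs replicate 1 or replicate 2 (fold changes of -0.753 and -0.73) and with library size alone (adjusted p = 0.0760). The fold change of Hadhb in Bec_LPCs against Hep_LPCs was 0.149 without Hep_LPCs replicate 1 and 1.02 without replicate 2, so its size depends on the Hep_LPCs library.

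Decr1, the reductase that clears double bonds at even positions (chromosome 4, 15917240 to 15945507), had 47.3 and 40.9 CPM in Bec_LPCs, 14.8 and 24.0 CPM in Hep_LPCs, and 30.1 and 36.9 CPM in NPC_LPCs. The 3 groups lay apart, and Decr1 rose by 1.19 ± 0.28 in Bec_LPCs against Hep_LPCs (adjusted p = 0.0269). Its call was lost without Bec_LPCs replicate 1 (adjusted p = 0.168), replicate 2 (adjusted p = 0.119) or Hep_LPCs replicate 1 (adjusted p = 0.0552). Echs1, the short-chain hydratase, and Eci1, an isomerase for unsaturated chains, were at 1.04 ± 0.26 and 0.83 ± 0.21 in Bec_LPCs against NPC_LPCs and missed the threshold (adjusted p = 0.0548 and 0.0583). Hadh, the short-chain hydroxyacyl dehydrogenase, Acaa2, the thiolase of the mitochondrial matrix, and the isomerase Eci2 had fold changes between -0.28 and 0.28 in all 3 comparisons, and none was called.

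Of the 5 peroxisomal members Acaa1a and Crot rose in Bec_LPCs against Hep_LPCs, 40% called beside 33.4% of all genes (16.1% higher). Acaa1a, a peroxisomal thiolase (chromosome 9, 119339676 to 119350299), had 70.7 and 63.6 CPM in Bec_LPCs, 27.5 and 38.1 CPM in Hep_LPCs, and 42.9 and 34.1 CPM in NPC_LPCs. Bec_LPCs lay above the other groups, which overlapped, and the fold change was 1.04 ± 0.23 against Hep_LPCs (adjusted p = 0.0221) and 0.80 ± 0.23 against NPC_LPCs (adjusted p = 0.0759). Its counts are uncertain, since Acaa1b is 99.1% identical over 765 bases of aligned transcript. Crot, which moves shortened chains onto carnitine for export to mitochondria (chromosome 5, 8966033 to 8997324), stood at 109 and 88.2 CPM in Bec_LPCs, 56.1 and 66.3 CPM in Hep_LPCs, and 65.6 and 53.5 CPM in NPC_LPCs. The order was the same as for Acaa1a, and the fold change was 0.69 ± 0.20 against Hep_LPCs (adjusted p = 0.0463, or 0.0559 in the fit on genes counted alike) and 0.73 ± 0.20 against NPC_LPCs (adjusted p = 0.0713). Without Bec_LPCs replicate 1 or 2 the adjusted p against Hep_LPCs was 0.156 and 0.120 for Acaa1a and 0.311 and 0.152 for Crot, without Hep_LPCs replicate 1 it was 0.0557 and 0.126, and without Hep_LPCs replicate 2 that of Crot was 0.0571.

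Acox3, an oxidase of branched chains, had the largest fold change of any member in Hep_LPCs against NPC_LPCs, -1.34 ± 0.44 (adjusted p = 0.162, or 0.0475 by DESeq2). Without Hep_LPCs replicate 1 it was -0.84, behind Acsl5 (1.44) and Acsl4 (-1.24), and without replicate 2 it was -2.08. Its level was 43.7 and 42.2 CPM in Bec_LPCs, 12.2 and 28.5 CPM in Hep_LPCs, and 50.4 and 51.7 CPM in NPC_LPCs. Both Hep_LPCs libraries lay below the other 4, and they differed 2.33-fold from each other. Ehhadh, the peroxisomal bifunctional enzyme of straight chains, had 2.15 and 2.10 CPM in Bec_LPCs, 1.40 and 7.59 CPM in Hep_LPCs, and 7.97 and 1.12 CPM in NPC_LPCs. The Ehhadh replicates differed 5.41-fold in Hep_LPCs and 7.13-fold in NPC_LPCs, in opposite order, so its group means say little. Hsd17b4, the bifunctional enzyme of branched and very long chains, was level across the groups, at 107 to 121 CPM in all 6 libraries and with fold changes between -0.04 and -0.03.

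The ketone body members were not called. Acat1, the mitochondrial thiolase that joins and splits acetoacetyl-CoA, stood at 51.9 and 41.8 CPM in Bec_LPCs, 72.3 and 65.9 CPM in Hep_LPCs, and 67.4 and 57.9 CPM in NPC_LPCs. Bec_LPCs lay below the other groups, with -0.56 ± 0.19 against Hep_LPCs (adjusted p = 0.0632) and -0.42 ± 0.19 against NPC_LPCs (adjusted p = 0.186). Bdh1, which turns acetoacetate into beta-hydroxybutyrate, was near the counting limit, with 24 and 19 reads in Bec_LPCs, 4 and 8 in Hep_LPCs, and 2 and 0 in NPC_LPCs (adjusted p = 0.284 for Bec_LPCs against Hep_LPCs and 0.0774 against NPC_LPCs). The groups did not overlap, but a floor of 3 reads was 0.127 to 0.178 CPM, and such levels limit what can be said of Bdh1 at this depth.

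Of 9 other genes of ketone bodies 7 were tested. In Hep_LPCs against NPC_LPCs 1 was called, 14.3% beside 0.795% of all genes. In Bec_LPCs 1 was called against NPC_LPCs, 14.3% beside 11.3% of all genes. Against Hep_LPCs 2 were called, 28.6% beside 33.4% of all genes. Oxct1, the transferase with which tissues other than hepatocytes use ketone bodies, stood at 48.0 and 46.7 CPM in Bec_LPCs, 73.2 and 74.6 CPM in Hep_LPCs, and 90.6 and 111 CPM in NPC_LPCs. The 3 groups lay apart, and Oxct1 fell in Bec_LPCs by 0.64 ± 0.17 against Hep_LPCs (adjusted p = 0.0335) and by 1.09 ± 0.17 against NPC_LPCs (adjusted p = 0.0205). Slc16a6, a monocarboxylate transporter that exports ketone bodies in zebrafish liver, had 10.3 and 9.65 CPM in Bec_LPCs, 46.1 and 37.1 CPM in Hep_LPCs, and 7.62 and 6.76 CPM in NPC_LPCs. It rose by 2.51 ± 0.31 in Hep_LPCs against NPC_LPCs (adjusted p = 0.0409) and fell by 2.06 ± 0.23 in Bec_LPCs against Hep_LPCs (adjusted p = 0.00375). The call of Slc16a6 in Hep_LPCs against NPC_LPCs was lost with either Hep_LPCs library left out, which leaves a single sample in that group. Of all genes 98 were called in that comparison by edgeR's quasi-likelihood test, and 5 by limma-voom.

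**Figure D5:**
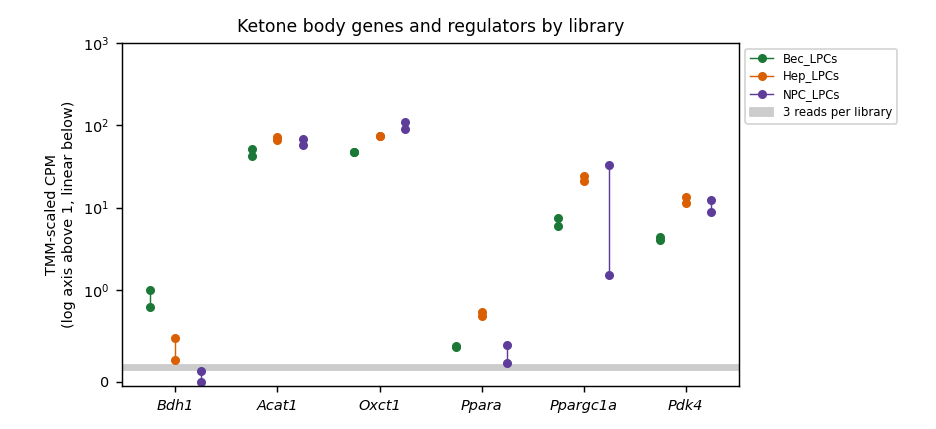
TMM-scaled CPM (y axis, log above 1 and linear below) of ketone body genes and of regulators and targets of oxidation in every library, with the points of a group joined and the level of 3 reads per library as a grey band. Bdh1 and Ppara lay nearest the band, and Ppargc1a had 33.1 and 1.52 CPM in the NPC_LPCs libraries.

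PPAR-alpha, with the coactivator encoded by Ppargc1a, is the main known activator of these genes in liver. Ppara had 0.380 and 0.386 CPM in Bec_LPCs, 0.761 and 0.712 CPM in Hep_LPCs, and 0.404 and 0.203 CPM in NPC_LPCs, which is 4 to 13 reads per library, and was not called. Ppargc1a had 7.43 and 6.00 CPM in Bec_LPCs, 24.2 and 21.1 CPM in Hep_LPCs, and 33.1 and 1.52 CPM in NPC_LPCs, where the replicates lay on either side of all other libraries. Of 24 tested regulators 4 were called lower in Bec_LPCs against Hep_LPCs and none higher, namely Prkab1, Prkag1, Foxa2 and Ppargc1b. That is a share of 16.7%, beside 33.4% of all genes (17.2% lower). Prkab1 and Prkag1, regulatory subunits of the energy sensor AMPK, were at -2.15 ± 0.16 and -2.87 ± 0.25 (adjusted p = 0.00163 and 0.00216), and also fell against NPC_LPCs (-0.97 ± 0.16 and -1.92 ± 0.24, adjusted p = 0.0221 and 0.0116). Foxa2, a liver transcription factor, fell by 1.22 ± 0.36 and Ppargc1b, a coactivator related to Ppargc1a, by 2.13 ± 0.64 (adjusted p = 0.0476 and 0.0482). Sirt1, a deacetylase, rose in Bec_LPCs against NPC_LPCs by 0.96 ± 0.20 (adjusted p = 0.0388), the single regulator called higher there. In that comparison 3 of the 24 regulators were called, 12.5% beside 11.3% of all genes.

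Of 10 tested PPAR-alpha target genes outside the 32 members 1 was higher and 4 lower in Bec_LPCs against Hep_LPCs, 50% called beside 33.4% of all genes. Pdk4, a kinase that spares glucose when fat is burnt, had 4.05 and 4.46 CPM in Bec_LPCs, 11.5 and 13.5 CPM in Hep_LPCs, and 12.5 and 8.79 CPM in NPC_LPCs. Bec_LPCs lay below all others, and Pdk4 fell by 1.55 ± 0.31 against Hep_LPCs (adjusted p = 0.0167) and by 1.32 ± 0.31 against NPC_LPCs (adjusted p = 0.0497). Vnn1, a pantetheinase, fell by 2.11 ± 0.38 against Hep_LPCs (adjusted p = 0.0128), and Cidec, a lipid droplet protein, was called with 1 and 0 reads in Bec_LPCs against 28 and 18 in Hep_LPCs (adjusted p = 0.0231). Angptl4, a lipase inhibitor, also fell, by 1.58 ± 0.43 (adjusted p = 0.0368). Ucp2, an inner membrane carrier, moved the opposite way, by 2.31 ± 0.30 against Hep_LPCs and 3.47 ± 0.32 against NPC_LPCs (adjusted p = 0.00565 and 0.00475). The median over this list was -1.01 in Bec_LPCs against Hep_LPCs, beside 0.03 over all genes.

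PPAR receptors bind repeats of the half-site AGGTCA, so this word and its direct repeat AGGTCANAGGTCA were searched on both strands of RefSeq promoters (GRCm38.p6, from 250 bases before to 50 after a start site). Promoters were at hand for 26 members, 28 windows in all, and not for Crat, Acad9, Decr1, Acaa2, Hsd17b4 and Acat1. The half-site occurred in 4 of the 28 windows, against 16.3% of all 32851 promoters, and the direct repeat in 0, against 0.0396% of all. A match is a description and not a site of binding, and no match says only that these letters are not in this window. The 4 matches are shown with up to 10 bases on either side because they include members called lower in Bec_LPCs (Acadm, Acadvl) and not called (Cpt1a, Echs1). Capitals mark the half-site, read 5′ to 3′ on the strand of the gene, where TGACCT is AGGTCA on the other strand. The windows are chr3:153944877-153944893 (minus strand), chr11:70015500-70015525 (minus strand), chr19:3323197-3323222 (plus strand) and chr7:140116489-140116514 (minus strand):
Acadm: gTGACCTtcgggctccg
Acadvl: ggatcaccctAGGTCAggtagaatac
Cpt1a: gtttccttacTGACCTcctccccgca
Echs1: cagcccgctcAGGTCAcgggtccacc

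Lists of neighbouring pathways were counted in the same fits. Of 28 nuclear genes of mitochondrial content 11 fell in Bec_LPCs against Hep_LPCs and none was called higher, with a median of -0.41. That is 39.3% called, beside 33.4% of all genes (17.2% lower). Mdh2 was at -1.35 ± 0.17, Ogdh at -1.34 ± 0.18 and Phb2 at -1.14 ± 0.16 (adjusted p = 0.00523, 0.00573 and 0.00660). Against NPC_LPCs 1 of these 28 rose, the phosphate carrier Slc25a3, and 1 fell, Ogdh, a subunit of the oxoglutarate dehydrogenase complex. That is 7.14% called beside 11.3% of all genes, with a median of 0.10. In Hep_LPCs against NPC_LPCs 0 of the 28 were called (0.795% of all genes), with a median of 0.46 beside -0.003 over all genes. Unadjusted p-values under 0.05 by edgeR's quasi-likelihood test were found there for 11, all higher, against 22.2% of all genes. Of 24 other mitochondrial oxidation genes 4 rose and 1 fell in Bec_LPCs against Hep_LPCs, 20.8% called beside 33.4% of all genes. Acadsb, the dehydrogenase of short branched chains, rose by 1.16 ± 0.18 (adjusted p = 0.00889), Acad10 and Acad12 also rose, as did Etfbkmt, the methyltransferase that modifies the Etfb protein (1.11 ± 0.34, adjusted p = 0.0489), and Cpt1b, the muscle form of the entry enzyme, had 4 and 2 reads in Bec_LPCs against 42 and 43 in Hep_LPCs (adjusted p = 0.00808). Acad10, Acad12 and Cpt1b are not among the genes taken as counted alike. Against NPC_LPCs Acad12 and Mcat, an enzyme of mitochondrial fatty acid synthesis, rose, and Cpt1b fell, 12.5% called beside 11.3% of all genes.

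Of 32 other peroxisomal genes 2 rose and 3 fell in Bec_LPCs against Hep_LPCs, 15.6% called beside 33.4% of all genes. Decr2, the peroxisomal counterpart of Decr1, rose by 1.51 ± 0.32 (adjusted p = 0.0202) and Pex26, a peroxin, by 0.71 ± 0.18 (adjusted p = 0.0321), while Pex14, a docking protein of peroxisomal import, fell by 1.36 ± 0.29 (adjusted p = 0.0190), and Amacr and Cat, encoding catalase, were also lower. Against NPC_LPCs Abcd3, an importer of acyl-CoA, rose and Pex14 fell, 6.25% called beside 11.3% of all genes. Of 18 genes of fatty acid uptake, binding and lipolysis 3 rose and 4 fell against Hep_LPCs (38.9% called beside 33.4% of all genes) and 0 were called against NPC_LPCs (11.3% of all genes) by edgeR's quasi-likelihood test, where 2 higher and 1 lower had an unadjusted p under 0.05. Slc27a1, a fatty acid transport protein, rose by 2.62 ± 0.30 and Slc27a3 by 2.34 ± 0.51 (adjusted p = 0.00411 and 0.0202), while Fabp5, a fatty acid binding protein, fell by 2.47 ± 0.43 and Pnpla2, the lipase that starts droplet lipolysis, by 0.81 ± 0.18 (adjusted p = 0.0121 and 0.0228). In Hep_LPCs against NPC_LPCs Slc16a6 was the only gene called by edgeR's quasi-likelihood test in any of these lists.

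Levels can be compared between genes only per length, as FPKM, which the Hep_LPCs and NPC_LPCs tables hold. Averaged over these 4 libraries Acsl5 and Acadl led, at 71.5 and 71.1 FPKM, followed by Acsl4 at 63.7, Etfb at 49.2, Hsd17b4 at 42.4 and Etfa at 42.0 FPKM. By group Acsl5 was at 96.3 ± 40.5 FPKM in Hep_LPCs and 46.7 ± 2.36 FPKM in NPC_LPCs, and Acadl at 66.5 ± 10.3 and 75.7 ± 13.3 FPKM (SD, n = 2 each), so the order of the leading genes does not hold beyond the spread of replicates. Of the subunit pairs, Hadha and Hadhb differed in level: Hadha stood at 34.2 ± 7.71 FPKM in Hep_LPCs and 29.0 ± 0.144 FPKM in NPC_LPCs, against 5.93 ± 1.95 and 6.56 ± 0.384 FPKM for Hadhb in the same order of groups. Etfb and Etfa were closer, at 58.0 ± 10.6 and 44.5 ± 7.22 FPKM in Hep_LPCs, and 40.5 ± 3.53 and 39.5 ± 1.57 FPKM in NPC_LPCs. At the low end were Acsl1 at 3.18, Ehhadh at 1.17 and Bdh1 at 0.0379 FPKM over the 4 libraries. Acsl1 thus stood far below Acsl5 and Acsl4 in these cells.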

How the data were processed

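Gene counts of 6 libraries of cultured mouse liver progenitor-like cells were used as deposited. Read counts per gene symbol, not normalized, come from the authors' 6 tables, per the file headers. FPKM values stand beside them in the Hep_LPCs and NPC_LPCs tables, as the authors deposited them, and served for levels between genes and for an alternative. The submitters' processing notes name Trimmomatic, HISAT2, Cufflinks, HTSeq, DESeq and the build mm10, without roles. The sources used here do not state how the Bec_LPCs tables were counted, and these have 21834 rows against 21878 in the others. Among the Bec_LPCs rows 14 name no gene (0.000191% and 0.000181% of reads) and were left out. No column of values was left unused.

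Symbols were brought to current names, and Bec_LPCs comparisons were fitted on the 20571 shared symbols over all 6 libraries. Hep_LPCs against NPC_LPCs was fitted on those 4 libraries alone. The shared symbols held 95.3% to 99.4% of a library's counts. The fits used edgeR 4.0.16 (TMM scaling, filterByExpr, quasi-likelihood F test, Benjamini-Hochberg adjustment over all genes tested) in R 4.3.3, tested on simulated data. CPM are counts scaled to the TMM-adjusted library size, and a floor of 3 reads was 0.127 to 0.178 CPM.

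Alternatives were DESeq2 1.42.0, limma 3.58.1 (voom, and log2 FPKM with a pseudocount of 1 or 0.1), other scalings and filters, a 1.5-fold minimum, a replicate block, other sets of libraries, each replicate left out, and genes counted alike. Such genes are protein-coding, share at most 25% of exonic length with another protein-coding gene and have no copy of 95% identity over 200 bases. The members, lists and alternatives were chosen with earlier results of these data known. Values in every library are given for members called in at least 1 comparison, for a list of central enzymes and for the largest and smallest fold changes. Of other lists, preset genes and up to 4 called genes by smallest adjusted p are named. Angptl4, Cat and Etfbkmt fall outside that limit and were chosen after their values were seen. Some preset genes are not reported here. Protein sequences were not used here. Floors cover counting error only.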

Additional observations from a re-analysis of the deposited data

How the results depend on the processing

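Of 943 alternative values of 60 member fold changes, 842 kept direction and side of the threshold, 47 lost and 18 gained a call, and 36 changed sign, none of these past the threshold; the causes were not tested. In Hep_LPCs against NPC_LPCs DESeq2 called 2 members, against 0, and 1517 genes in all, against 98. All genes called there numbered 515 with no filter, 172 at 10 CPM, 5 by limma-voom, 46 with a 1.5-fold minimum, 1274 with all 6 libraries, 13 and 208 on log2 FPKM plus 1 and plus 0.1, and 0 to 361 without 1 library. In Bec_LPCs against NPC_LPCs, with 3 members called, there were 6 with library size alone, 9 by DESeq2, 5 by limma-voom, 1 with a 1.5-fold minimum, 8 with the 4 libraries compared, 1 among genes counted alike and 1 to 8 without 1 library. All genes called there, 1458, became 2897 by DESeq2, 497 with a 1.5-fold minimum, 2491 with the 4 libraries, 827 counted alike and 115 to 2363 without 1 library. In Bec_LPCs against Hep_LPCs the 11 members became 3 with a 1.5-fold minimum, 7 counted alike and 2 to 13 without 1 library, and the 4293 genes 2142 and 489 to 4908. Over each library's own table the members held 0.1829% in Bec_LPCs, against 0.192%.

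Deviations of libraries with the same replicate number correlated at -0.0709 between Bec_LPCs and Hep_LPCs, 0.134 between Bec_LPCs and NPC_LPCs, and -0.0412 between Hep_LPCs and NPC_LPCs. With 2 libraries per group these values cannot decide whether replicate numbers pair the samples. With the replicate block 2 members were called in Bec_LPCs against NPC_LPCs, 9 in Bec_LPCs against Hep_LPCs and 0 in Hep_LPCs against NPC_LPCs, with 770, 3390 and 128 of all genes, and Ehhadh in the last was at 0.102.

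In Hep_LPCs against NPC_LPCs Etfdh was at 0.003 with DESeq2 (size factors and test), 0.001 with library size alone, 0.014 with all 6 libraries and 0.026 counted alike, and Ehhadh at 0.151 by limma-voom, 0.006 counted alike and 0.011 and 0.082 on log2 FPKM. Without 1 library the ranges there were -0.801 to 0.087 for Cpt2, -0.103 to 0.176 for Crot, -0.256 to 0.004 for Acadvl, -1.24 to 0.524 for Acsl4, -0.198 to 0.18 for Etfdh, -1.692 to 1.983 for Ehhadh, -0.002 to 0.488 for Hadha and -0.628 to 0.255 for Hadhb. In Bec_LPCs against NPC_LPCs library size alone gave 0.064 for Cpt2 and 0.142 for Etfa, and the ranges were -0.197 to 0.43 for Cpt1a, -0.234 to 0.009 for Cpt2, -0.46 to 0.021 for Acadm, -0.158 to 0.097 for Etfa and -1.903 to 0.877 for Ehhadh. In Bec_LPCs against Hep_LPCs Acad11 was at 0.176 with library size alone, 0.008 with no filter and 0.027 at 10 CPM, and the ranges were -0.164 to 0.15 for Acad11, -0.189 to 0.687 for Cpt2 and -1.834 to 0.596 for Ehhadh. Depth limits Bdh1 and Ppara, which lay near the floor.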
